A study of Mus musculus with 24 samples.

Results

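A set of 5 genes transcribed from the strand opposite a protein-coding gene is described here together with the coding genes. They are 4931431C16Rik with Acox3, Gm10366 with Lrp10, Gm16023 with Slc35e2, Gm35065 with Prss12 and 6330410L21Rik with Egf. These 10 genes are 10 of the 54232 in the count table of the series, and all 10 passed the filter on low counts (over 10 in total) that left 26116 genes. The 5 antisense genes were picked because their counts were low after partial nephrectomy (PNx) against Control, so every value in that comparison is given as a description. The coding partners were picked by position alone. The series holds 24 adipose tissue libraries, each from 1 mouse, in 4 groups of 6. The mice were C57BL6, 10 weeks old by the design text of the series. Every mouse was injected with lentivirus that expresses its cargo from the promoter of adiponectin, a fat cell gene. The cargo was green fluorescent protein (GFP) in Control and PNx mice, or NaKtide in the other 2 groups. NaKtide is a fragment of the Na,K-ATPase meant to block signalling of that pump through Src. Control mice had a sham operation and GFP, NaKtide mice a sham operation and NaKtide, PNx mice a partial nephrectomy and GFP, and PNx+NaKtide mice a partial nephrectomy and NaKtide. Partial nephrectomy removes most of the kidney mass and models renal failure.

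A natural antisense transcript is an RNA read from the DNA strand opposite another gene, so that the shared stretch of both RNAs is complementary. Such transcripts often start near or run across the promoter of the coding gene, and some are known to change the transcription, stability or translation of their partner, while for many no role is known. No role is stated here for any of the 5. Of the partners, Acox3 encodes a peroxisomal acyl-CoA oxidase that starts the shortening of branched-chain fatty acids. Lrp10 encodes a receptor of the low-density lipoprotein receptor family that moves between the Golgi and endosomes. Slc35e2 belongs to the SLC35 family, whose known members carry nucleotide sugars into the endoplasmic reticulum and Golgi. Prss12 encodes neurotrypsin, a secreted serine protease that cleaves agrin. Egf encodes epidermal growth factor, the secreted ligand of the receptor Egfr, which is made in large amounts by kidney tubules and the submandibular gland.

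In the GENCODE annotation of GRCm38, each antisense gene shares exon bases with its partner on the opposite strand. 4931431C16Rik (chr5:35581227-35588763, minus strand, 4 exons) shares 700 exon bases with Acox3 (chr5:35583040-35615352, plus strand), of which 154 are coding in Acox3. Gm10366 (chr14:54463042-54464742, minus strand, 1 exon) shares 475 bases with the first exon of Lrp10 (chr14:54464137-54471497, plus strand), 37 of them coding. Gm16023 (chr4:155608300-155624755, minus strand, a processed transcript) shares 540 bases in 3 exons of Slc35e2 (chr4:155601416-155623340, plus strand), and 381 of these are coding. Gm35065 (chr3:123444328-123447447, minus strand, 2 exons) shares 157 bases with the first exon of Prss12 (chr3:123446913-123506597, plus strand), all of them coding. 6330410L21Rik (chr3:129753758-129763884, plus strand, 5 exons) shares 500 bases with the first exon of Egf (chr3:129677565-129755316, minus strand), 148 of them coding. Of the antisense genes, 4 therefore run over the start of their partner and on past it by 1813 bases at Acox3, 1095 at Lrp10, 2585 at Prss12 and 8568 at Egf. The exception is Gm16023, which ends 6884 bases downstream of the start of Slc35e2.

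**Figure D1:**
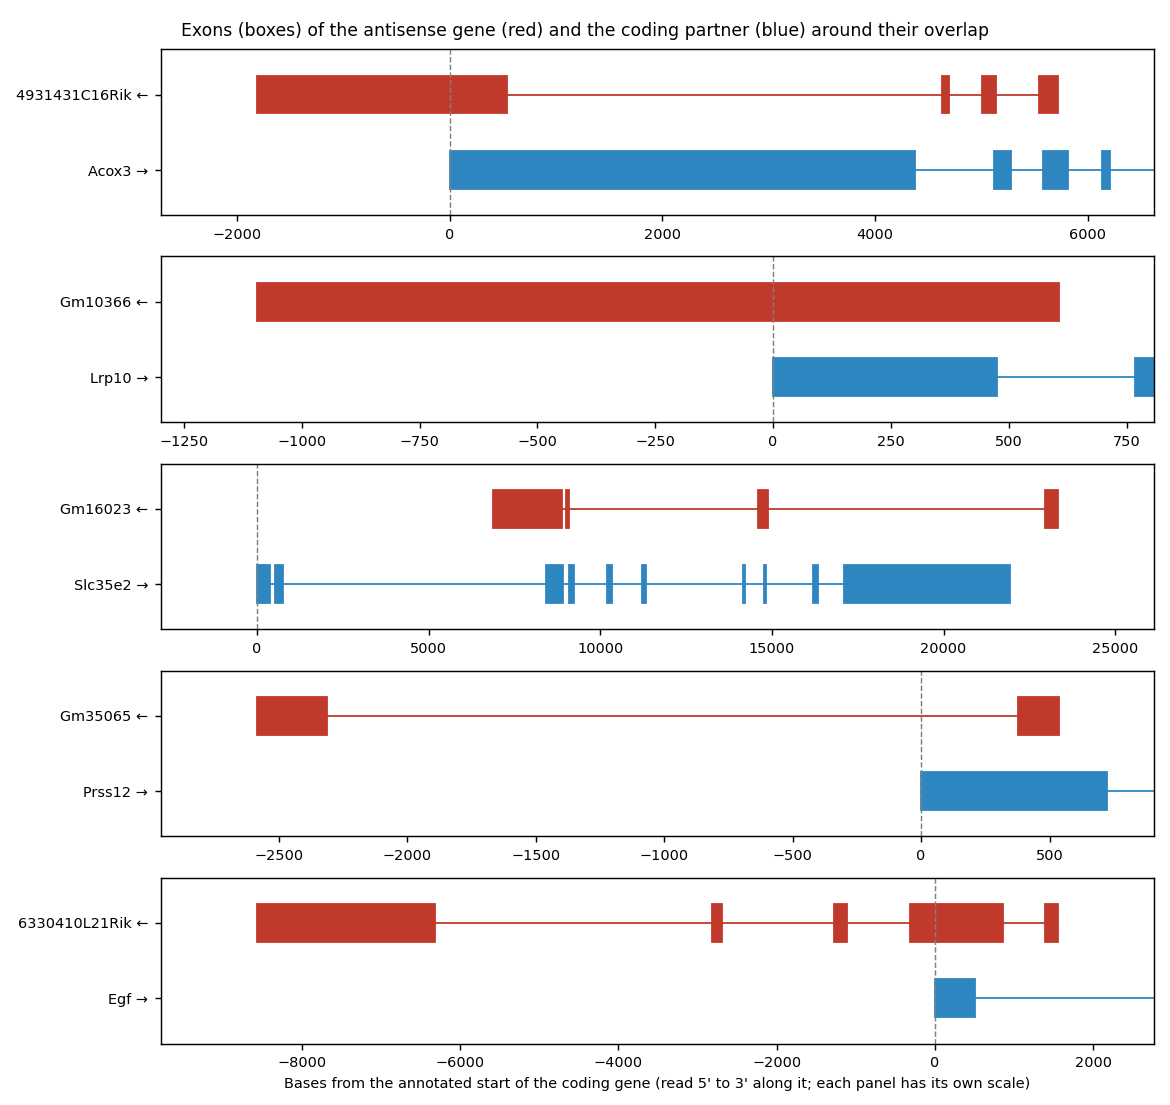
Exons (boxes) of each antisense gene (red) and its coding partner (blue), with the distance in bases from the annotated start of the coding gene on the horizontal axis (dashed line at the start, a scale of its own in each panel). The antisense genes at Acox3, Lrp10, Prss12 and Egf cross the start of their partner, and Gm16023 lies wholly downstream of the start of Slc35e2.

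The longest run of coding bases that each pair shares is printed below in the sense of the coding gene, because a read from this stretch belongs to a member of the pair by its strand alone. The reverse complement of each run was found in the annotated antisense transcript. The sequences are from the GENCODE M21 transcripts (GRCm38), 5′ to 3′, and capitals mark the annotated start codon of the partner where the run holds it. The Acox3 run is chr5:35588619-35588763, the Lrp10 run chr14:54464575-54464611, the Slc35e2 run chr4:155609998-155610291, the Prss12 run chr3:123447291-123447447, all on the plus strand, and the Egf run is chr3:129754817-129754964 on the minus strand.
Acox3: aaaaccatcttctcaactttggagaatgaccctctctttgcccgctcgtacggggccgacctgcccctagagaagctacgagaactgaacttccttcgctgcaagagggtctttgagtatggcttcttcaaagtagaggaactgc
Lrp10: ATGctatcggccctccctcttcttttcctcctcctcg
Slc35e2: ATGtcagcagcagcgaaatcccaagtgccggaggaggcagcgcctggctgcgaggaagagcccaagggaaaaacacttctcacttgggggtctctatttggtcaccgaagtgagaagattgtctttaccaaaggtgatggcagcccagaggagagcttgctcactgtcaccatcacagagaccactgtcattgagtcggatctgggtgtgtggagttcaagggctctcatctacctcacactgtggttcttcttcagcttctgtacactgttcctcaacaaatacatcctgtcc
Prss12: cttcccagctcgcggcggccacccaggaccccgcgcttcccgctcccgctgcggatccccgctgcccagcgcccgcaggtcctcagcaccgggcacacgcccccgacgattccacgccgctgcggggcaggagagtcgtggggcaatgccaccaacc
Egf: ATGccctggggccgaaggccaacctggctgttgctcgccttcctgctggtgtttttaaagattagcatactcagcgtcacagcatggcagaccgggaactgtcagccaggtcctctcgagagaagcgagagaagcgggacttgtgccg
The runs hold 145, 37, 294, 157 and 148 bases in this order. The start codons of Lrp10, Slc35e2 and Egf lie inside the shared stretch. The Prss12 run is the richest in G and C, at 75.2%, and the Acox3 run the poorest, at 51.0%.

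At Acox3, Lrp10 and Egf the 250 bases before the RefSeq start of the coding gene also lie wholly within exons of the antisense gene, so these promoters are themselves part of the antisense RNA. At Prss12 the 250 bases lie in the intron of Gm35065. The 3 promoters inside antisense exons are printed here from the RefSeq promoter table (GRCm38.p6), 5′ to 3′ on the strand of the coding gene, with capitals marking the letters GGGCGG (the GC box). The Acox3 promoter is chr5:35582784-35583033, the Lrp10 promoter chr14:54463897-54464146 (both plus strand) and the Egf promoter chr3:129755323-129755572 (minus strand).
Acox3: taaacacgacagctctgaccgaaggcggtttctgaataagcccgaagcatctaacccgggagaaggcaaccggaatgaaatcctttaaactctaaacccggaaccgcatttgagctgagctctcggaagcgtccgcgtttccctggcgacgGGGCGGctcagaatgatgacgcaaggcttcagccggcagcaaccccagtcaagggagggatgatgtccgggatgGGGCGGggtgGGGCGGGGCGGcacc
Lrp10: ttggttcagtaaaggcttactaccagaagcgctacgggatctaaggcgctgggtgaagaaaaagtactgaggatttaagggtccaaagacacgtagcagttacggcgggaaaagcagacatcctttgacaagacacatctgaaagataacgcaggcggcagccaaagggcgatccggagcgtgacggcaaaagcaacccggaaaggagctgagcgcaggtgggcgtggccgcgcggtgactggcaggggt
Egf: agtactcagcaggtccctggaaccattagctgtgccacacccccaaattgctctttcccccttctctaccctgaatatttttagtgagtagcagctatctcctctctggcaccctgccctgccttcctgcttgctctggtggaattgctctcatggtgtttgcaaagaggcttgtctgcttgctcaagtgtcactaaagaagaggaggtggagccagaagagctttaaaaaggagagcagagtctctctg
Of the 10 genes, 7 had an entry in that table. The Acox3 promoter held GGGCGG 4 times, the last 2 of them overlapping by 1 base, and 21 CG dinucleotides, the Lrp10 promoter held it 0 times with 18, and the Egf promoter held it 0 times with 0. Over 32841 promoters the median was 6 CG dinucleotides, and 32.7% held GGGCGG on either strand. TATAAA (the TATA box, in 12.4% of promoters), CCAAT (33.9%) and CACGTG (the E box, 6.02%) were searched on both strands and were found in none of the 7 promoters. Of the antisense genes in the table, 4931431C16Rik and 6330410L21Rik had 3 and 5 CG dinucleotides and no GGGCGG in the 250 bases before their start, and Gm35065 had 15 and 1 match. A match is a description of the sequence only.

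Several facts about the libraries bear on every value below. Total counts ranged from 679250 to 2979505, and any 2 replicates differed by more than counting error (chi-square per degree of freedom of at least 1.57). By the labels the library kit keeps the strand, but the strand setting of the counting is not given in the sources used here, so the reads of an antisense gene and of its partner cannot be told apart with certainty. Among the other 2151 pairs of a non-coding gene and a coding gene that share exon bases, the non-coding gene had more counts per kb of exon in 1749 (81.3%), with a median ratio of 7.88. The 15 adipocyte markers, the fat cell genes such as Adipoq, summed to 87.4 to 1225 for each 1000000 counts of the library in 22 libraries and to 8543 in PNx replicate 6 and 4872 in NaKtide replicate 6. The 15 epididymis markers summed to 30.2 to 3133, with the lowest sums in PNx replicate 1 and NaKtide replicate 6 (33.2), and exceeded the adipocyte sum in 20 of the 24 libraries. PNx replicates 1 to 3 had the highest sums of the 14 testis germ cell markers (1243 to 2023) and the 10 kidney tubule markers (495 to 621) of all libraries. The 10 skeletal muscle markers summed to 5495 in NaKtide replicate 6, above its adipocyte sum, and to 14.8 to 88.9 in the other libraries. All markers of these lists were detected in at least 1 library, and the part of these cell types in the results was not tested. In whole tissue, fewer cells of a type and less RNA per cell cannot be told apart.

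All 5 antisense genes were lower in PNx than in Control and all 5 partners differed less, and the Control group itself was split. Levels are given as CPM, the counts for each 1000000 counts of a library after TMM scaling. 4931431C16Rik, the most abundant of the 5, had 145 CPM at the lowest, 669 at the median and 1083 at the highest in Control, and 23.0, 94.5 and 207 in PNx. In Control it stood at 667 to 1083 in replicates 1 to 4 and at 168 and 145 in replicates 5 and 6, so the groups overlapped only through Control replicates 5 and 6 and PNx replicates 4 and 5. Its fitted log2 fold change in PNx against Control was -2.46 ± 0.48 (SE). Acox3 had 58.0, 70.1 and 104 CPM in Control and 19.6, 48.1 and 74.8 in PNx, with a log2 fold change of -0.64 ± 0.37.

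Gm10366 had 72.8, 254 and 343 CPM in Control and 16.4, 42.6 and 88.5 in PNx (log2 fold change -2.21 ± 0.43). The lowest 2 Control libraries were again replicates 5 and 6, at 72.8 and 81.6 CPM, within the range of PNx replicates 4 to 6. Lrp10 had 7.69, 15.0 and 17.6 CPM in Control and 1.48, 9.31 and 20.8 in PNx (-0.44 ± 0.53). PNx replicates 1 and 2 were at 1.48 and 1.62 CPM, whereas PNx replicates 5 and 6, at 19.0 and 20.8, were above every Control library.

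Gm16023 had 48.2, 158 and 225 CPM in Control and 8.30, 21.8 and 65.2 in PNx (-2.20 ± 0.47). Slc35e2, at a level near that of its antisense gene, had 66.8, 96.7 and 103 CPM in Control and 37.2, 47.7 and 141 in PNx (-0.45 ± 0.32). PNx replicate 4 had the highest Slc35e2 level of all 24 libraries, and PNx replicates 1, 2, 3 and 6 were below every Control library. For Gm16023, PNx replicate 4 at 65.2 CPM was the only PNx library above Control replicates 5 and 6, which were at 49.97 and 48.2.

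Gm35065 had 6.79, 33.2 and 48.5 CPM in Control and 0.377, 3.87 and 7.72 in PNx (-2.90 ± 0.62), with counts of 1 to 16 in the PNx libraries. Prss12 had 6.00, 8.66 and 9.92 CPM in Control and 0.493, 1.76 and 12.6 in PNx (-0.92 ± 0.59). PNx replicates 1, 2, 3 and 6 were at 0.493 to 2.02 CPM, and replicates 4 and 5 at 12.6 and 10.1, above all Control libraries.

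6330410L21Rik had 3.70, 35.6 and 56.0 CPM in Control and 0, 1.82 and 5.35 in PNx, the largest log2 fold change of the 10 genes (-3.89 ± 0.72). Its Control replicates 1 to 4 stood at 33.9 to 56.0 CPM and replicates 5 and 6 at 3.70 and 4.68. The 0 in PNx replicate 6 allows up to 3 counts, or 1.13 CPM, by counting error alone. Egf had 5.33, 5.92 and 12.1 CPM in Control and 2.26, 4.74 and 7.13 in PNx (-0.58 ± 0.48). In Control replicate 1, Egf was at 12.1 CPM and the other Control libraries at 5.33 to 6.02.

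**Figure D2:**
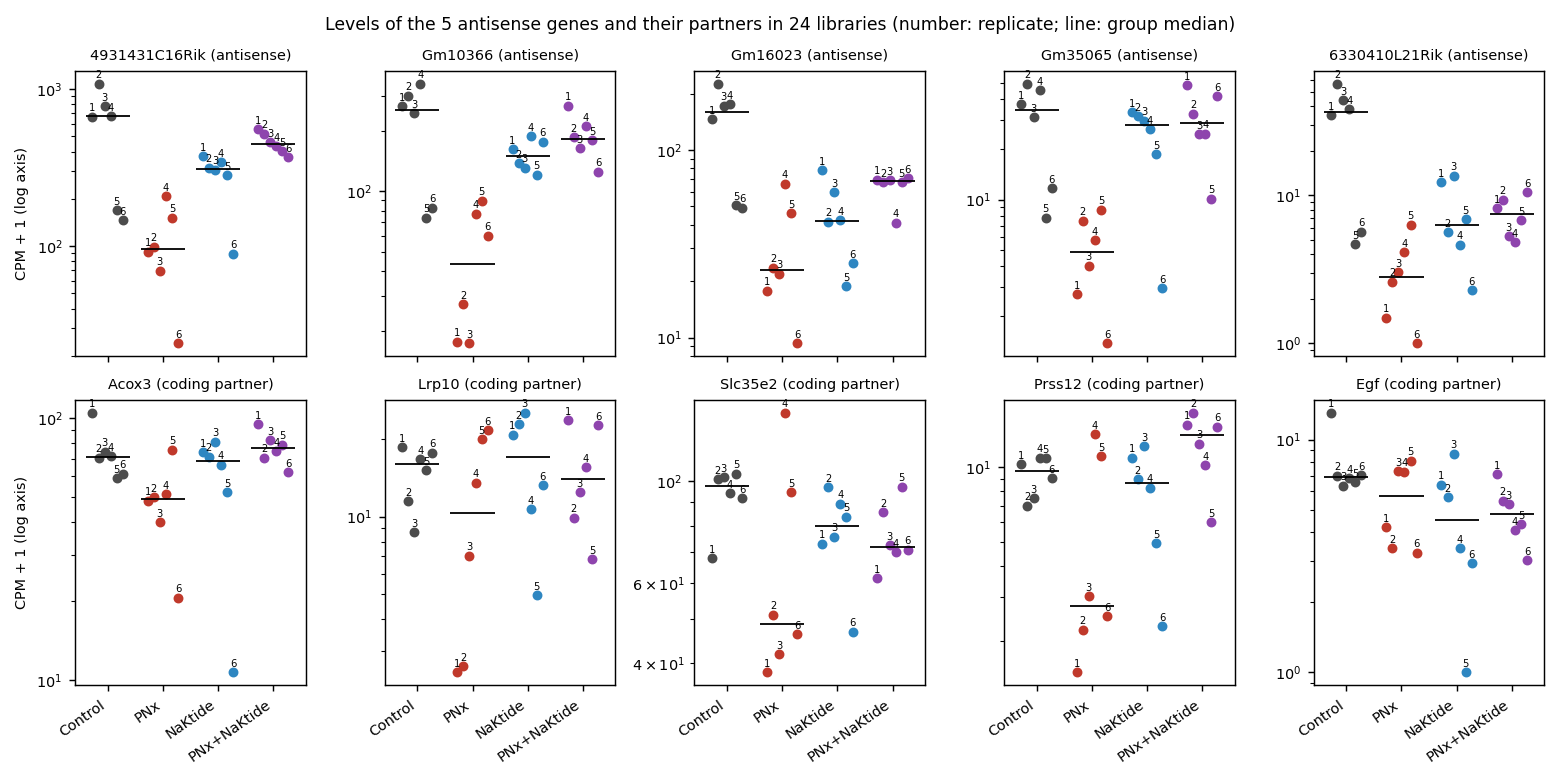
Level of each gene in every library, as CPM + 1 on a log axis, with the antisense genes above and their coding partners below (points are libraries numbered by replicate, lines are group medians, n = 6). For all 5 antisense genes Control replicates 5 and 6 lie far below Control replicates 1 to 4 and near the PNx libraries. Among the partners they lie slightly below Control replicates 1 to 4 for Acox3 (58.0 and 60.2 CPM) and within or above their range for the other 4.

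In the edgeR fit of all 24 libraries, the 5 antisense genes were among 20 genes with a Benjamini-Hochberg adjusted p under 0.1 in PNx against Control, a share of 0.0766% of the genes tested. This is the comparison the genes were picked on, so nothing is read from their number. All 20 were lower in PNx, 16 of them are annotated as other than protein-coding (34.9% of all genes tested are) and 11 are non-coding genes that share exon bases with a coding gene on the other strand (2221 of the genes tested are). Just inside the threshold were Gm16023 and Gm35065 in the places 18 and 19 of the order by p and AU022754 in place 20, each with an adjusted p of 0.0943, and just outside was Gm45486 at 0.101. The share of all genes lower in PNx at an unadjusted p under 0.05 was 6.88%, while over all genes the median was a log2 fold change of 0.36. None of the 5 partners passed the adjusted threshold in edgeR, at adjusted p values of 0.252 to 0.596. The values of the partners depended on the scaling, the tool and 1 library, however. In edgeR the log2 fold changes of Acox3, Lrp10, Slc35e2 and Prss12 were -0.64, -0.44, -0.45 and -0.92. With DESeq2 they were smaller in size, at -0.18, -0.23, -0.12 and -0.72. Limma voom with sample weights also called Acox3, Lrp10, Slc35e2 and Prss12, with log2 fold changes of -0.71, -1.82, -0.99 and -2.34 and adjusted p values of 0.0296, 0.00289, 0.00128 and 0.000274, so that 9 of the 10 genes were called. Without PNx replicate 4, edgeR called Slc35e2 (-0.76, adjusted p = 0.0711) and Prss12 (-1.48, adjusted p = 0.0659) besides the 5 antisense genes. The share of all genes called in these settings is not given here, so nothing is read from the number of the 10 genes called.

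The call of the 5 antisense genes rested on single libraries. Without any single library among Control replicates 1 to 4 or PNx replicates 1 to 3, 0 of the 10 genes were called, and without PNx replicate 4 the number was 7. The number was also 0 without any single library among NaKtide replicates 1 to 5 or PNx+NaKtide replicates 1 to 6, which belong to the groups not compared, and it was 5 without Control replicate 5 or 6, PNx replicate 5 or 6 or NaKtide replicate 6. Their fold changes moved less than their calls. Leaving out single Control or PNx libraries gave log2 fold changes of -2.73 to -2.20 for 4931431C16Rik, -2.49 to -2.03 for Gm10366, -2.56 to -1.99 for Gm16023, -3.19 to -2.66 for Gm35065 and -4.41 to -3.61 for 6330410L21Rik. Without PNx replicates 1, 2 and 3 together, the libraries with the highest germ cell and kidney sums, 0 of the 10 genes were called in edgeR (adjusted p = 0.389 for each antisense gene), and the log2 fold changes were -2.25, -1.63, -1.84, -2.88 and -3.51 in the same order. Those of Lrp10, Slc35e2 and Prss12 were then 0.28, -0.04 and -0.10, and those of Acox3 and Egf -0.62 and -0.44. Without PNx replicate 6 and NaKtide replicate 6, which had the highest adipocyte sums, all 5 antisense genes stayed called.

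Against the libraries of PNx, those of PNx+NaKtide had higher levels of all 5 antisense genes. This comparison shares the PNx libraries with the rule and is likewise a description. 4931431C16Rik stood at 368, 445 and 557 CPM (lowest, median, highest) in PNx+NaKtide, all above the highest PNx library at 207, a 4.29-fold higher fitted level (SE 0.47 on the log2 scale). Gm10366 stood at 124, 182 and 266 CPM (2.00 ± 0.43) and Gm35065 at 9.15, 27.8 and 47.6 CPM (2.90 ± 0.62), also above every PNx library. Such a gap between the groups was found for 0.356% of all genes tested, from which nothing is read, since the genes were picked for low PNx values. Gm16023 at 39.9, 67.2 and 69.9 CPM (1.09 ± 0.46) and 6330410L21Rik at 3.84, 6.51 and 9.50 CPM (1.71 ± 0.70) overlapped with PNx. None of the 10 genes passed the adjusted threshold in edgeR. DESeq2 called 3 of the 10 in this comparison and limma voom with sample weights 9. The shares of all genes that these tools called are not given here, so nothing is read from their calls.

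Each partner again differed less than its own antisense gene, although Prss12 differed more than Gm16023. Prss12 had 4.99, 12.5 and 15.6 CPM in PNx+NaKtide, with a log2 fold change of 1.39 ± 0.59 against PNx. Acox3 had 61.1, 75.9 and 93.5 CPM (0.71 ± 0.37) and Lrp10 5.82, 13.0 and 22.7 CPM (0.49 ± 0.54). Slc35e2 had 60.3, 70.7 and 96.5 CPM (0.15 ± 0.32) and Egf 2.04, 3.81 and 6.09 CPM (-0.21 ± 0.49), so that 6330410L21Rik and Egf differed in the sign of their change. Without PNx replicates 1, 2 and 3, the changes of Lrp10 and Slc35e2 were -0.26 and -0.29.

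NaKtide mice without nephrectomy lay between the Control and PNx groups in the median level of all 5 antisense genes. 4931431C16Rik had 88.6, 310 and 373 CPM in NaKtide, with a log2 fold change against Control of -1.04 ± 0.46. Gm16023 had 17.7, 40.8 and 77.0 CPM (-1.64 ± 0.46) and 6330410L21Rik 1.29, 5.27 and 12.6 CPM (-2.15 ± 0.66). None of the 10 genes was called in edgeR, the lowest adjusted p being 0.672 for Gm16023. Gm10366 had 120, 149 and 186 CPM (-0.52 ± 0.42) and Gm35065 1.94, 27.0 and 32.4 CPM (-0.37 ± 0.57). This comparison shares the Control libraries with the rule, so these values too are a description.

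Among the partners in NaKtide, Acox3 had 9.70, 67.8 and 80.3 CPM (log2 fold change against Control -0.32 ± 0.37) and Lrp10 3.94, 16.1 and 24.4 CPM (0.19 ± 0.53). Slc35e2 had 45.9, 78.7 and 96.2 CPM (-0.27 ± 0.32), Prss12 1.29, 7.61 and 11.2 CPM (-0.23 ± 0.58) and Egf 0, 3.53 and 7.68 CPM (-0.78 ± 0.49). The 0 of Egf was in NaKtide replicate 5, the shallowest library, where 3 counts correspond to 5.91 CPM. NaKtide replicate 6, with few epididymis and many adipocyte and skeletal muscle transcripts, had the lowest level of the group for 4931431C16Rik, Gm35065, 6330410L21Rik, Acox3, Slc35e2 and Prss12.

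**Figure D3:**
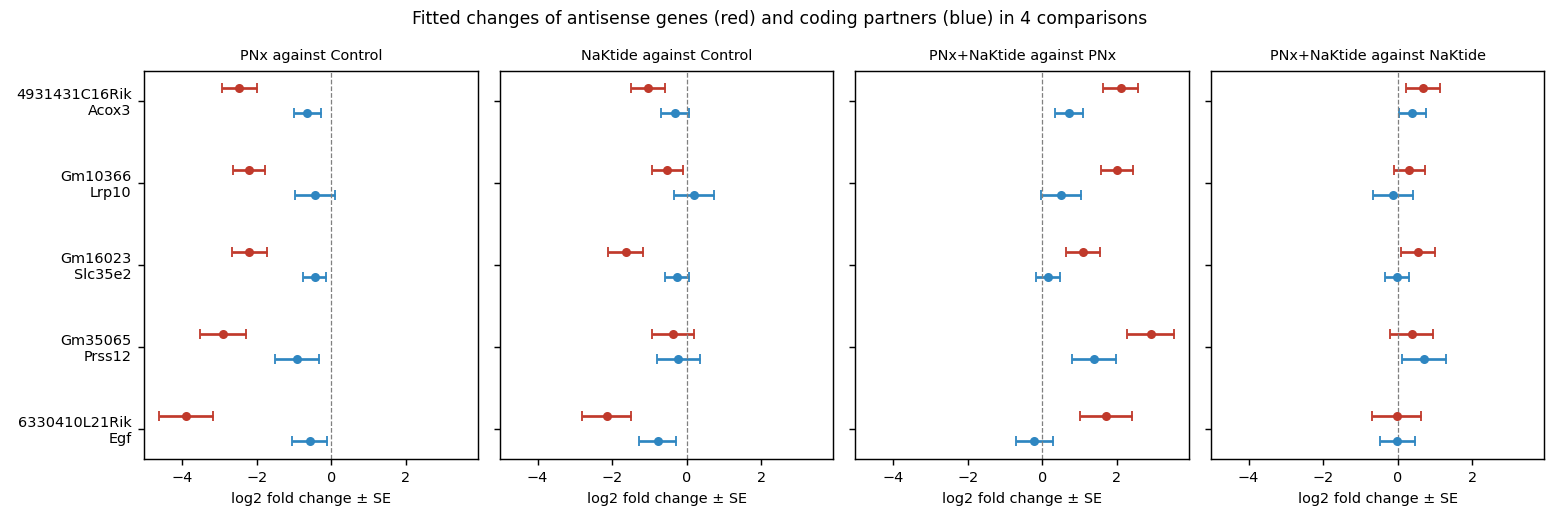
Log2 fold change ± SE (horizontal axis) of the antisense genes (red) and their partners (blue) in 4 comparisons, from the edgeR fit of 24 libraries. The antisense genes lie between -3.89 and -2.20 in PNx against Control and between -0.03 and 0.68 in PNx+NaKtide against NaKtide, the comparison whose libraries the choice of genes did not use.

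The question whether nephrectomy changed these genes could be tested only where NaKtide was expressed, in PNx+NaKtide against NaKtide, since those 12 libraries did not enter the choice. None of the 10 genes was called lower or higher there by the edgeR quasi-likelihood test. The test took the spread of each gene from all 4 groups, so Control and PNx entered it. For each antisense gene the SD was a larger share of the mean in Control and PNx than in NaKtide or PNx+NaKtide. For 4931431C16Rik it was 62.4% in Control, 60.5% in PNx, 35.5% in NaKtide and 15.6% in PNx+NaKtide. The lack of a call therefore does not show that the genes were unchanged. The adjusted p was 1 for each of the 10 genes, 0 of the 10 had an unadjusted p under 0.05 (4.09% of all genes did), and DESeq2 and limma voom called 0 of them. The log2 fold change was 0.68 ± 0.45 for 4931431C16Rik, 0.31 ± 0.42 for Gm10366, 0.54 ± 0.45 for Gm16023, 0.37 ± 0.57 for Gm35065 and -0.03 ± 0.66 for 6330410L21Rik. The 95% intervals were -0.21 to 1.57, -0.51 to 1.12, -0.35 to 1.43, -0.75 to 1.49 and -1.33 to 1.27 in that order. For the partners the values were 0.39 ± 0.37 for Acox3, -0.14 ± 0.54 for Lrp10, -0.02 ± 0.32 for Slc35e2, 0.70 ± 0.58 for Prss12 and -0.01 ± 0.48 for Egf. 4931431C16Rik was above the highest NaKtide library in 5 of 6 PNx+NaKtide libraries, and the other genes in at most 4 of 6.

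The change with nephrectomy was set against that in the presence of NaKtide by the interaction term, which contains the PNx against Control fold the genes were picked on and is a description only. It was 3.14 ± 0.65 for 4931431C16Rik, 2.52 ± 0.60 for Gm10366, 2.73 ± 0.65 for Gm16023, 3.27 ± 0.84 for Gm35065 and 3.86 ± 0.96 for 6330410L21Rik on the log2 scale, each with an adjusted p of 0.414 in edgeR (DESeq2 called 5 of the 10 genes and limma voom 8). For the partners it was 1.03 ± 0.52 (Acox3), 0.30 ± 0.76 (Lrp10), 0.43 ± 0.45 (Slc35e2), 1.62 ± 0.82 (Prss12) and 0.57 ± 0.70 (Egf). The shares of all genes that DESeq2 and limma voom called for this term are not given here, so nothing is read from their calls.

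The 2 counts of a pair come from the same library, so library size and scaling cancel in their ratio. The 0.5 added to each count in the log2 ratios below weighs more where counts are low. Per kb of exon and over all libraries, the antisense gene had 22.9 times the counts of Acox3, 28.1 times those of Lrp10, 2.16 times those of Slc35e2, 17.0 times those of Prss12 and 6.47 times those of Egf. In counts, 4931431C16Rik had 14491 and Acox3 2668, Gm10366 had 5952 and Lrp10 556, and Gm16023 had 2861 and Slc35e2 3140. Gm35065 had 854 and Prss12 305, and 6330410L21Rik had 480 and Egf 216. Of the 5 partners, Slc35e2 alone was assigned more counts than its antisense gene. These ratios, like the levels and fold changes of each named gene, hold as named only if the counting followed the strand of the kit. With the opposite setting, reads listed under an antisense gene would be reads of the coding strand, and this was not tested. Of the other 2151 pairs, 71.0% had a larger ratio per kb than that of Gm16023 and Slc35e2.

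The log2 ratio of the antisense count to the partner count was lower in PNx than in Control for all 5 pairs, without a test since the rule used these libraries. For 4931431C16Rik and Acox3 it was 2.68 ± 1.08 (SD, n = 6) in Control, 1.00 ± 0.58 in PNx, 2.40 ± 0.41 in NaKtide and 2.57 ± 0.18 in PNx+NaKtide. For Gm10366 and Lrp10 it was 3.77 ± 1.197, 2.49 ± 0.99, 3.44 ± 0.90 and 3.80 ± 0.79 in the same order. For Gm16023 and Slc35e2 it was 0.33 ± 1.02, -1.30 ± 0.55, -0.95 ± 0.78 and -0.26 ± 0.36, the only pair whose ratio was also lower in NaKtide than in Control by more than 1 on the log2 scale. For Gm35065 and Prss12 it was 1.51 ± 1.30, 0.18 ± 1.56, 1.51 ± 0.54 and 1.25 ± 0.36. For 6330410L21Rik and Egf it was 1.55 ± 1.66, -1.59 ± 1.28, 0.75 ± 1.14 and 0.70 ± 0.74.

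**Figure D4:**
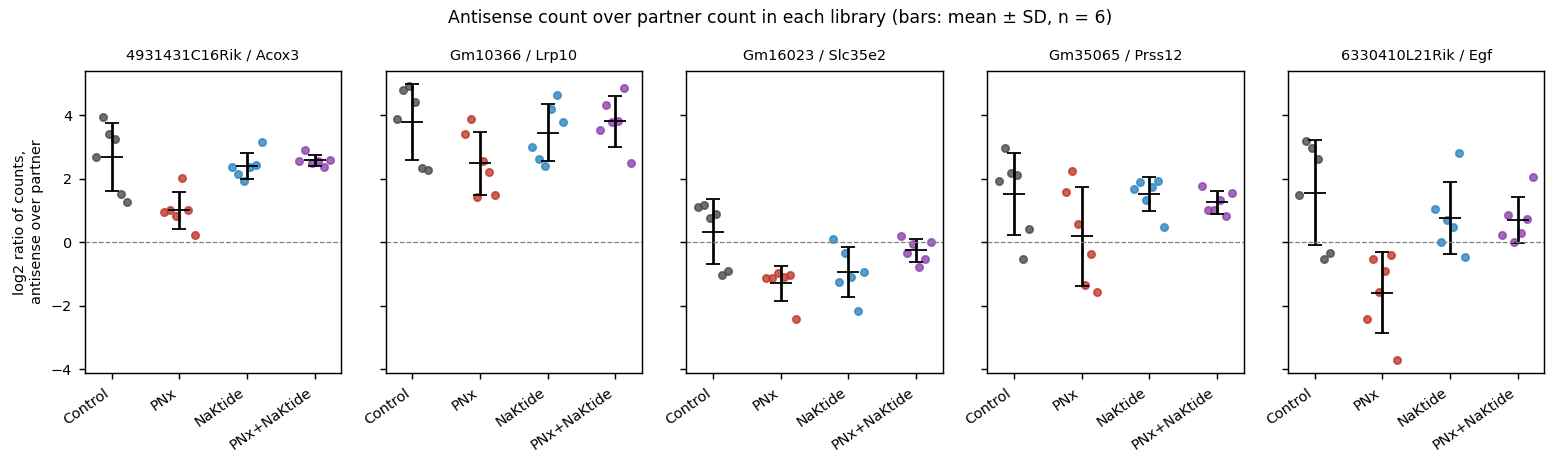
Log2 ratio of the antisense count to the partner count in each library (points) by group, with mean ± SD (bars, n = 6) and equal counts at the dashed line. The means are lowest in PNx for all 5 pairs, and the Control points of each pair spread over a wider range than those of PNx+NaKtide.

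The differences in this ratio between PNx and Control were -1.68, -1.28, -1.64, -1.33 and -3.15 in the order of the pairs above. Over all 2156 pairs the median difference was -0.53, and 69.8% of pairs were lower in PNx. In PNx+NaKtide against NaKtide, whose libraries did not enter the choice, the differences were 0.17 ± 0.44 (SE), 0.36 ± 0.57, 0.69 ± 0.48, -0.26 ± 0.62 and -0.06 ± 0.71. The limma adjusted p was 0.999 for each over all pairs. The SE and p of limma came from the spread within all 4 groups, Control and PNx among them, so they are not independent of the choice. The exact permutation test over all assignments of the 12 libraries (two-sided, unadjusted) gave p = 0.377, 0.463, 0.0758, 0.374 and 0.913. None of the 2156 pairs was called in limma, and 45 (2.09%) had an unadjusted p under 0.05, none of them among the 5. The 95% intervals of the differences were -0.68 to 1.03, -0.75 to 1.48, -0.26 to 1.63, -1.47 to 0.96 and -1.44 to 1.33 in the order of the pairs.

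Within Control, the libraries in which the 5 antisense genes were low also had low non-coding counts against coding counts in the other 2151 pairs. The median log2 ratio over those pairs was 1.19 to 1.78 in Control replicates 1 to 4 and 0.74 and 0.65 in replicates 5 and 6. In PNx it ranged from 0.14 in replicate 6, the library with the lowest mean of the 5 antisense genes, to 1.33 in replicate 4. It was 0.74 to 1.58 in NaKtide and 0.69 to 1.38 in PNx+NaKtide. NaKtide replicate 6 went the other way, with a high median ratio of 1.58 and the lowest antisense level of its group. The share of the library taken by the non-coding genes of these pairs was 22.9% in PNx replicate 6 and 34.7% in NaKtide replicate 6, the lowest and the highest of all. The part of this shift in the levels of the 5 antisense genes was not tested.

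**Figure D5:**
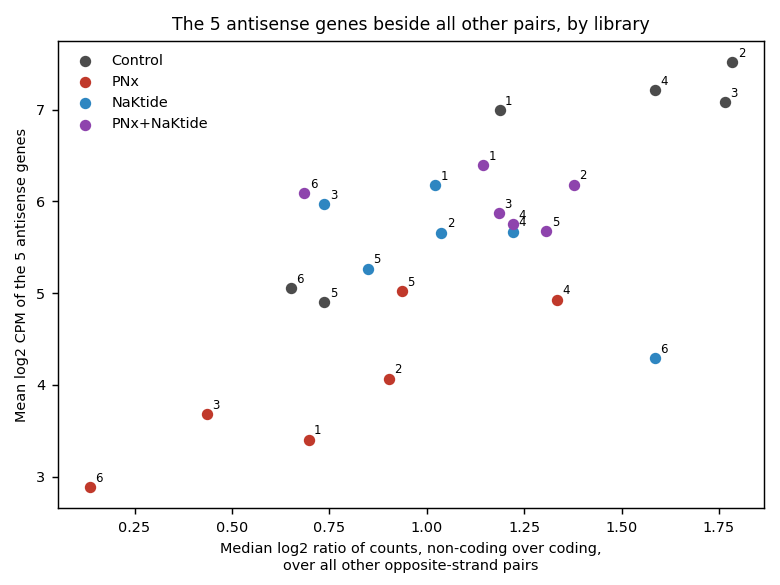
Mean log2 CPM of the 5 antisense genes (vertical axis) against the median log2 ratio of non-coding to coding counts over the other 2151 opposite-strand pairs (horizontal axis), with each library as a point numbered by replicate. Control replicates 5 and 6 lie to the left of and below Control replicates 1 to 4, and PNx replicate 6 is lowest on both axes.

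The levels of the 5 antisense genes were compared with each other and with those of the partners across libraries. As a description over all 24 libraries, which share depth and scaling and form groups that were part of the choice, the median Spearman correlation (rho) among the 10 combinations of antisense genes was 0.83 (range 0.68 to 0.88), and among the partners 0.37 (0.02 to 0.58). Over the 12 NaKtide-transduced libraries the medians were 0.51 (-0.42 to 0.65) and 0.40 (-0.39 to 0.76), ranges that overlap widely, and the difference was not tested. With its own partner, the antisense gene had a rho over 24 libraries of 0.73 at Acox3, 0.17 at Lrp10, 0.47 at Slc35e2, 0.55 at Prss12 and 0.39 at Egf, where the other pairs had a median of 0.29. By rho the partner held place 366, 6848, 2485, 1113 and 3238 of 26115 genes in the same order, so other genes followed each antisense gene more closely than its partner did.

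Tested over the 12 libraries that did not enter the choice, the levels of Gm35065 and Prss12 were correlated (Pearson r = 0.92, permutation p = 0.00034, rho = 0.78, permutation p = 0.00378), with adjusted p values of 0.00630 and 0.0439 over the 2151 of 2156 pairs in which both genes varied. Without the 2 libraries farthest from the median of Gm35065 (NaKtide replicate 6 and PNx+NaKtide replicate 5), r was 0.76 and rho 0.64. Prss12 had only 2 to 28 counts in each of the 12 libraries. For 4931431C16Rik and Acox3, r was 0.94 (permutation p = 0.00131, adjusted 0.0140) and rho 0.64 (permutation p = 0.0282, adjusted 0.149). Without NaKtide replicate 6 and PNx+NaKtide replicate 1 that r was 0.46, so the relation rests on those libraries. By r 24.5% of these pairs passed an adjusted p under 0.1 and by rho 15.3%. For Gm10366 and Lrp10 r was 0.07 (permutation p = 0.834), for Gm16023 and Slc35e2 0.16 (permutation p = 0.613) and for 6330410L21Rik and Egf 0.38 (permutation p = 0.228). Without the 2 farthest libraries of each these were -0.72, -0.37 and 0.15.

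The genes whose levels followed the mean of the 5 antisense genes most closely over the 24 libraries were Gm9910 (rho 0.970), Gm14066 (0.964), Gm10645 (0.950), Gm16401 (0.946) and Gm11513 (0.932), out of 19430 genes with a mean of at least 1 CPM. In total 27 genes had a rho over 0.9. The 24 libraries include those of PNx and Control, so low PNx levels of such genes follow from how they were found. Their levels below are a description. Gm9910, Gm10645 and Gm16401 overlap exons of an opposite-strand gene (by 377, 819 and 424 bases) and Gm14066 and Gm11513 do not. Gm10645 is the only protein-coding gene of the 5 by its annotation. Gm9910 had a median of 68.2 CPM in Control (19.1 to 101), 7.57 in PNx (4.53 to 33.0), 42.7 in NaKtide (10.3 to 54.5) and 48.6 in PNx+NaKtide (34.3 to 65.3). The medians of Gm14066 were 58.5, 2.79, 31.5 and 36.2 CPM in the same order, and those of Gm16401 150, 32.8, 63.9 and 64.2 CPM.

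Genes with roles near those of the partners were compared as lists, and 0 of the genes in each passed the adjusted threshold in any comparison by edgeR. Among 20 genes of peroxisomal fatty acid oxidation, which includes Acox3, the median log2 fold change was 0.48 in PNx against Control (0.36 for all genes), with 5 genes higher and 2 lower at an unadjusted p under 0.05 (18.5% of all genes were higher and 6.88% lower). In PNx+NaKtide against NaKtide the median was -0.28 (0.04 for all genes) with 0 at that level. Abcd2, a transporter of fatty acids into the peroxisome, had a log2 fold change of -2.53 ± 1.43 in that comparison, and Decr2, a peroxisomal reductase for unsaturated fatty acids, 1.12 ± 0.71. Abcd2 had a mean of 15.8 ± 36.6 CPM (SD, n = 6) in PNx, so its spread exceeded its mean.

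Of the 15 genes of the low-density lipoprotein receptor family, 5 were higher and 1 lower in PNx against Control at an unadjusted p under 0.05 (median 0.44). Over all genes, 18.5% were higher and 6.88% lower. In PNx+NaKtide against NaKtide Lrp3 had a log2 fold change of -3.10 ± 1.07 with an unadjusted p of 0.00779 and an adjusted p of 1 in edgeR. Its mean was 1041 ± 1704 CPM in NaKtide and 121 ± 111 CPM in PNx+NaKtide, and 377 of its exon bases overlap an opposite-strand gene. Of 23 tested SLC35 transporters, 1 was higher and 1 lower in PNx against Control at an unadjusted p under 0.05 in edgeR. Their median log2 fold change there was -0.42 (0.36 for all genes). At the same p level in PNx+NaKtide against NaKtide were 4.09% of all genes and, of this list, Slc35d2 alone (3.18 ± 1.40), so nothing is read from it. Slc35d2 is a nucleotide sugar transporter with a mean of 0.358 CPM. It was named after its value was seen.

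In the neurotrypsin and agrin list 7 of 8 genes were tested, with medians of -0.13 in PNx against Control and -0.09 in PNx+NaKtide against NaKtide. Serpine2, an inhibitor of serine proteases, had log2 fold changes of 3.28 ± 1.02 and -1.09 ± 1.06 in these comparisons at mean levels of 0.468 to 5.07 CPM. Rapsn, which gathers acetylcholine receptors at the synapse, had -0.13 ± 0.38 and -0.10 ± 0.38. Of 12 tested EGF ligands and receptors, 1 was higher and 3 lower in PNx against Control at an unadjusted p under 0.05 (median -0.45). Over all genes, 18.5% were higher and 6.88% lower there. In PNx+NaKtide against NaKtide, 0 of the 12 were at that level (median -0.12). The receptor Egfr had 1.23 ± 0.92 and -1.29 ± 1.03, the receptor Erbb3 -1.39 ± 0.58 and 0.59 ± 0.58, and Lrig1, a membrane protein that lowers receptor levels, 0.57 ± 0.38 and -0.57 ± 0.39.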

How the data were processed

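RNA of adipose tissue from 24 mice was sequenced from a stranded mRNA kit. The submitters' processing notes name Trimmomatic 0.38, HISAT2 2.1.0, DESeq2 1.20.0 and GRCm38, and the annotation release and the strand setting of the counting are not stated in any source at hand. Whole read counts for each gene were deposited without normalization. FPKM values of the same libraries, also made by the authors, served as an alternative only. GENCODE M21 matched 54079 of 54232 gene identifiers. Genes with more than 10 counts in all were fitted with edgeR 4.0.16 (quasi-likelihood, robust, TMM scaling, 4 group means, 24 libraries), and a call was a Benjamini-Hochberg adjusted p under 0.1 over 26116 genes. The SE was taken from the fold change and its F statistic. The biological coefficient of variation was 71.4%. Pair ratios are log2 of the 2 counts, each plus 0.5, fitted with limma 3.58.1 over all 2156 pairs that share exon bases on opposite strands. Correlations used log2 CPM with a prior count of 2 and 100000 permutations. DESeq2 1.42.0, limma voom, other scalings and filters and left-out libraries were alternatives (R 4.3.3, Python 3.11.15, scipy 1.17.1). The fits were tested on simulated data. Total counts of 679250 to 2979505 put 3 counts, the limit that a count of 0 allows, at 0.739 to 5.91 CPM, and this limit covers counting error only. Each mouse gave 1 library, taken as a replicate by its label.

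The genes and lists were chosen with earlier results of these data known. Named genes are the 10 genes, in each list up to 3 genes with a mean of at least 1 CPM and the lowest p in PNx+NaKtide against NaKtide, and the 5 genes with a mean of at least 1 CPM that best followed the mean of the 5 antisense genes.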

Additional observations from a re-analysis of the deposited data

Results flagged for a closer look

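Of 60 groups of 6 libraries examined with Dixon's test (10 genes and 5 log2 pair ratios in 4 groups), 6 held a library beyond the 95% limit, where chance gives about 1 in 20. In CPM, 4931431C16Rik was at 88.6 in NaKtide replicate 6 against 282 to 373 in the other libraries of the group. Acox3 was at 104 in Control replicate 1 against 58.0 to 73.4, and Egf at 12.1 in the same library against 5.33 to 6.02. Slc35e2 was at 66.8 in Control replicate 1 against 91.0 to 103. Gm16023 was at 39.9 in PNx+NaKtide replicate 4 against 66.3 to 69.9. The log2 ratio of Gm16023 to Slc35e2 was -2.42 in PNx replicate 6 and -1.15 to -0.96 in the other PNx libraries.

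For 4931431C16Rik all 6 PNx libraries lay below the Control mean and all 6 PNx+NaKtide libraries above the NaKtide mean. The interaction was 3.14 ± 0.65 on the log2 scale with an adjusted p of 0.414 in edgeR, so a difference between the effects is not shown. It contains the PNx against Control fold on which the gene was picked, so its size is a description.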

How the results depend on the processing

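Of the 10 genes, 5 were called in PNx against Control, and 5 with DESeq2, DESeq2 size factors, library size scaling, filterByExpr or without PNx 6 and NaKtide 6. The number was 1 without a filter, 0 at an adjusted p under 0.05, 0 on log2(FPKM + 1) and on log2(FPKM + 0.1), 0 in a fit of the compared groups only, 0 without PNx 1, 2 and 3 and 9 with limma voom. Leaving out single libraries gave 0 to 7, where leaving out those of NaKtide and PNx+NaKtide was chosen after seeing the data. In PNx+NaKtide against PNx the number was 0 in edgeR, 3 with DESeq2 and 9 with limma voom, and for the interaction 0, 5 and 8. The share of all genes called is not given for the other tools and settings, so these numbers are not a result about the 10 genes. Replicate numbers did not pair the libraries: correlations of same-numbered deviations ran from -0.59 to 0.71 (median 0.12), and 7 of 24 libraries correlated best with their own number. With the number as a block, 1 gene was called in PNx against Control and 1 for the interaction. None was called in PNx+NaKtide against NaKtide under any alternative run.

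Some small fold changes turned sign. Without PNx 1, 2 and 3, Lrp10 had log2 fold changes of 0.28 in PNx against Control, -0.26 in PNx+NaKtide against PNx and -0.41 for the interaction. Slc35e2 in PNx+NaKtide against PNx had -0.075 with DESeq2 size factors, -0.069 with DESeq2, -0.0098 on log2(FPKM + 1), -0.0055 on log2(FPKM + 0.1) and -0.29 without PNx 1, 2 and 3. In NaKtide against Control, Gm35065 had 0.015 with limma voom, and Prss12 had 0.0074 without PNx 6 and NaKtide 6. In PNx+NaKtide against NaKtide, Slc35e2 had 0.0027 (size factors), 0.059 (library size), 0.010 (DESeq2), 0.0024 and 0.0032 (FPKM + 1, FPKM + 0.1) and 0.051 (compared groups only). 6330410L21Rik had 0.031 (size factors), 0.019 (filterByExpr), 0.27 (block), 0.032 (DESeq2), 0.092 and 0.23 (FPKM + 1, FPKM + 0.1), 0.044 (compared groups only) and 0.010 (without PNx 1, 2 and 3). Egf had 0.045 (size factors), 0.0043 (library size), 0.029 (block), 0.047 and 0.30 (FPKM + 1, FPKM + 0.1) and 0.045 (compared groups only). Leaving out single libraries gave -0.14 to 0.052 for Slc35e2, -0.26 to 0.26 for 6330410L21Rik, -0.19 to 0.30 for Egf and -0.32 to 0.036 for Lrp10 there. The log2 ratio of 6330410L21Rik to Egf was 0.094 with a pseudocount of 2, and -0.33 to 0.35 without single libraries.

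The rho of Gm10366 and Lrp10 was -0.056 over the 12 NaKtide-transduced libraries, -0.11 without PNx and -0.048 without the 2 farthest libraries. That of Gm16023 and Slc35e2 was -0.084, 0.19 and 0.35 in these settings, 0.33 without PNx 6 and NaKtide 6 and 0.40 on FPKM. Without PNx, rho was 0.46 for Gm35065 and Prss12 and 0.53 for 6330410L21Rik and Egf. The cause of these changes was not tested. Lrp10, Prss12, Egf, Gm35065 and 6330410L21Rik had only 216 to 854 counts over all libraries.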
